A study of Mus musculus with 6 samples.

Results

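Of the 20788 genes listed in at least 1 of 6 RNA sequencing libraries, 38 were near-silent in every Tyr-L library and expressed in every Tyr-H library. They were chosen by level alone: under 0.15 FPKM in each of the 3 Tyr-L libraries and at least 0.3 FPKM in each of the 3 Tyr-H libraries, with an unlisted gene taken as 0 FPKM. FPKM is a fragment count scaled to transcript length and to the depth of the library, so levels of different genes are compared here per length. The same limits gave 40 genes before genes whose names start with Cxcl or Ccl were left out. Because the limits use the comparison of Tyr-H with Tyr-L cells, the difference between the groups in these genes is the choice itself and is given as a description, with no test. Every Tyr-H library stood above every Tyr-L library in all 38 genes, as the limits require, and in 20.2% of the 14336 genes tested for a difference.

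Both groups were subclones of B16, a pigmented mouse melanoma line from strain C57BL/6. Tyr-H cells have high and Tyr-L cells low activity of tyrosinase, the enzyme that starts melanin synthesis from tyrosine. Cells of both groups were grown in low-glucose DMEM with serum, penicillin and streptomycin, with no further treatment named in the labels, and mRNA of 3 libraries a group was sequenced. Both are subclones of 1 line, and the sources used here do not say whether separate cultures or subclones lie behind the 3 libraries of each group, so the spread between them may be technical. Tyr, the gene of tyrosinase, averaged 10.0 FPKM in Tyr-L libraries against 21.3 in Tyr-H libraries, in the direction of the labels.

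The tables used here give no read counts. From the steps between low FPKM values depth was estimated at 20100000 to 22300000 fragments in Tyr-L and 20000000 to 21700000 fragments in Tyr-H libraries, and the level worth 3 fragments, called the floor here, was computed for each gene from that estimate. The floors are approximate and cover counting error only. Floors and estimated fragments use the longest annotated transcript of each gene, so use of shorter transcripts would mean fewer fragments and higher floors. Of the 38 genes, 5 were unlisted in all Tyr-L libraries, 16 were unlisted in at least 1 of them, and 12 lay under the floor in each. In the Tyr-H libraries 37 genes lay at or over the floor in each, and the median gene had 26.6 estimated fragments in its lowest Tyr-H library.

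Most of the 38 genes were low even where they were expressed. Their Tyr-H means ran from 0.377 to 4.66 FPKM with a median of 0.604 FPKM, against a median of 2.65 FPKM over the 18994 genes listed in a Tyr-H library. Only 8 genes averaged at least 1 FPKM and 2, Akr1b7 and Elmo1, at least 2 FPKM in Tyr-H cells. In bulk RNA a few cells with a high level and many cells with a low level cannot be told apart.

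**Figure D1:**
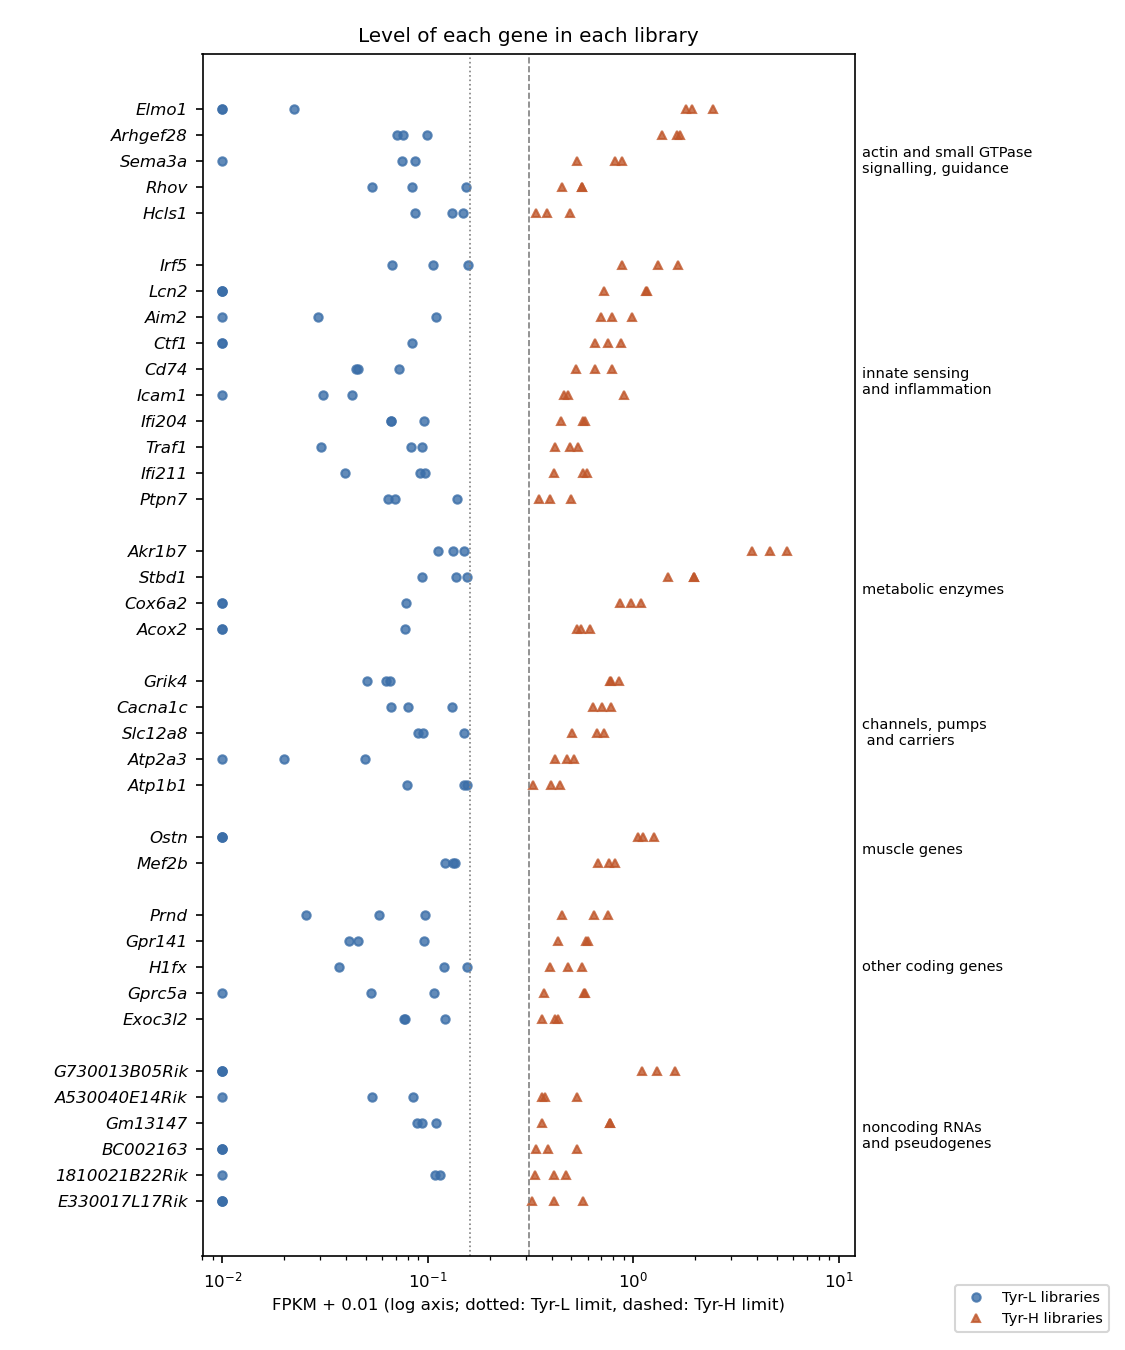
Level of 37 of the 38 genes in each library, as FPKM + 0.01 on a log axis, ordered by function, with circles for the 3 Tyr-L and triangles for the 3 Tyr-H libraries; unlisted genes sit at 0.01. The gap between the lines at the limits of 0.15 and 0.3 FPKM (drawn with 0.01 added) is empty by choice, and Akr1b7 and Elmo1 lie farthest to the right.

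The 38 genes fell into several functional groups. They comprise 32 protein-coding genes, 2 antisense RNAs, 2 long intergenic RNAs and 2 pseudogenes. By role, 5 act in actin and small GTPase signalling or guidance, 10 in innate sensing and inflammation, 4 are metabolic genes, 5 are channels, pumps or carriers, and 3 are best known from muscle. Several are known mainly from other tissues than the pigment cell: neurons for kainate receptors and blood cells for Hcls1, Ptpn7 and Cd74. Melanocytes themselves come from the neural crest.

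Elmo1, on chromosome 13 (chr13:20090596-20608353, plus strand, GRCm38 with GENCODE M21 gene models), encodes a scaffold that binds DOCK proteins. The ELMO and DOCK complex loads RAC with GTP and so drives actin-based migration and the engulfment of dying cells. Elmo1 was unlisted in Tyr-L libraries 1 and 2 and stood at 0.0124 FPKM in library 3, which is 1.39 estimated fragments. The Tyr-H libraries 1, 2 and 3 held 1.79, 1.91 and 2.44 FPKM of Elmo1. With the longest transcript that is an estimate of 196 or more fragments in each. No fold is given because the Tyr-L level rests on so few fragments. The gene spans 517758 bases, and 3.20% of its exonic bases are shared with an annotated gene on the opposite strand that was unlisted.

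Gpr141, an orphan G protein-coupled receptor gene (chr13:19749682-19824257, minus strand), lies 266339 bases from Elmo1. Its level was 0.0858, 0.0314 and 0.0357 FPKM in the Tyr-L and 0.576, 0.592 and 0.418 FPKM in the Tyr-H libraries. The stretch of chromosome 13 from Gpr141 to Elmo1 held 3 listed genes. Between the pair, the listed gene Gm5446 went from a mean of 0.179 to 0.0646 FPKM and was not called (limma on log2(FPKM + 0.1), adjusted p = 0.0967).

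The windows before the RefSeq transcript starts of this neighbouring pair are shown because these windows differ in their number of CG pairs. That both genes were near-silent in the Tyr-L libraries is the choice of the 38 genes itself. Sequences are from RefSeq on GRCm38.p6, 5′ to 3′ on the strand of the gene, 250 bases each, with CG pairs in capitals. The Elmo1 window is chr13:20090257-20090506 on the plus strand and the Gpr141 window is chr13:19824258-19824507 on the minus strand.
Elmo1: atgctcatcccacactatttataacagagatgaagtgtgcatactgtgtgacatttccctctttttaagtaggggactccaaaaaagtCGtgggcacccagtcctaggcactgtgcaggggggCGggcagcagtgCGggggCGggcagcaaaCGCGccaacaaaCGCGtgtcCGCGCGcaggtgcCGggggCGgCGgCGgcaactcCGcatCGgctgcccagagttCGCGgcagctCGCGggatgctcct
Gpr141: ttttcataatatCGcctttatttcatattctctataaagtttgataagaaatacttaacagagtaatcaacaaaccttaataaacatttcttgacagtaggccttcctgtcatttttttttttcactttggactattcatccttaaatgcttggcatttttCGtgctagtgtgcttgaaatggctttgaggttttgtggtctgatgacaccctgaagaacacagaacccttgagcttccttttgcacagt
The Elmo1 window holds 21 CG pairs and the Gpr141 window 2. The Elmo1 window shown is 1 of those RefSeq gives for the gene, and the window of another start (chr13:20472740-20472989) holds 5 CG pairs. Over the 30 of the 38 genes with a RefSeq window, with 1 window a gene, the median was 6 CG pairs, as over the windows of all 27025 genes, and 40.0% of the 30 had under 5 CG pairs against 44.5% of all.

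Other genes of small GTPase and actin signalling stood beside Elmo1. Arhgef28, a guanine nucleotide exchange factor for RHOA (chr13:97899469-98206439), had 0.0658, 0.0893 and 0.0611 FPKM in the Tyr-L and 1.37, 1.68 and 1.61 FPKM in the Tyr-H libraries. Its mean of 1.56 ± 0.163 FPKM (SD, n = 3) in Tyr-H was 21.6-fold that in Tyr-L. Sema3a, a secreted repellent of axons and migrating neural crest cells (chr5:13125414-13602565), stood at 0.0762 and 0.0648 FPKM in Tyr-L libraries 1 and 3 and was unlisted in library 2. It reached 0.876, 0.523 and 0.802 FPKM in the Tyr-H libraries, a 15.6-fold ratio of means. Rhov, an atypical small GTPase that is induced in the neural crest (chr2:119269201-119271272), had 0.143, 0.0435 and 0.0739 FPKM in Tyr-L and 0.555, 0.441 and 0.553 FPKM in Tyr-H libraries, a 5.94-fold ratio of means. Hcls1, the blood-cell relative of cortactin, had at most 0.138 FPKM in Tyr-L libraries against levels between 0.326 and 0.481 FPKM in Tyr-H libraries, and a ratio of means of 3.51, the lowest among these 5 genes for which one is given.

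The tested partners of Elmo1, Sema3a and Arhgef28 were not called higher, and no partners were chosen for Rhov and Hcls1. Across the fixed list of ELMO, DOCK and RAC signalling, 0 of 21 tested genes outside the 38 were called higher in Tyr-H and 2 were called lower, Rac3 and Wasf1, with 1 called lower at a pseudocount of 1 and 3 when libraries were rescaled to 1 total. Of all 14336 genes tested, 2.96% were higher and 5.78% lower in Tyr-H cells by the same call (limma, with a change of at least 1 on the log2 scale and an adjusted p of 0.05 or less). The median log2 fold change of the 21 genes was -0.35, against -0.15 over all tested genes. Rac3, a RAC GTPase, fell from 0.698 to 0.163 FPKM (log2 fold change -1.60, SE 0.25, adjusted p = 0.000518), and Wasf1, a subunit of the actin-nucleating WAVE complex, from 10.2 to 4.29 FPKM (log2 fold change -1.23, SE 0.07, adjusted p = 1.53e-06). Dock1, the best known partner of ELMO1, had a mean of 19.3 FPKM in Tyr-L cells against 13.8 in Tyr-H cells, and Dock2 was unlisted. For Sema3a, the receptor genes Nrp1 (8.72 and 5.35 FPKM) and Plxna1 (71.1 and 41.4 FPKM) were listed in both groups and neither passed the fold change limit.

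Akr1b7 had the highest level of the 38 genes. It encodes an aldo-keto reductase that reduces lipid aldehydes and is known from the adrenal gland and vas deferens (chr6:34412334-34423142). The Tyr-L libraries held 0.102, 0.123 and 0.140 FPKM and the Tyr-H libraries 3.79, 4.60 and 5.60 FPKM. The Tyr-H mean of 4.66 ± 0.904 FPKM (SD, n = 3) was 38.3-fold the Tyr-L mean. Akr1b7 shares 27.2% of its exonic bases with a pseudogene on the opposite strand, Gm13857, which was unlisted in 5 of 6 libraries. Of 8 other tested aldo-keto reductase genes 0 were called, with a median log2 fold change of 0.06. That median became -0.03 when each library was rescaled to the same FPKM total and 0.22 under median ratio scaling.

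Stbd1, whose protein tethers glycogen to membranes and to autophagy (chr5:92603041-92606579), had 0.145, 0.128 and 0.0838 FPKM in Tyr-L and 1.47, 1.96 and 1.96 FPKM in Tyr-H libraries. The ratio of its means was 15.1. The glycogen genes Gys1, Gbe1, Gyg, Gaa, Pygb, Pygl, Pygm and Epm2a and the autophagy gene Gabarapl1, chosen as partners of Stbd1, were tested and not called. Of these, Gys1 (log2 fold change 0.60), Pygl (0.98) and Gabarapl1 (0.40) rose, and Gyg (-0.15), Gaa (-0.10) and Pygb (-0.28) fell. These changes had a limma adjusted p under 0.05 but were smaller than the fold change limit. Gbe1, Pygm and Epm2a had an adjusted p over 0.05. Acox2, a peroxisomal oxidase of branched fatty acids and bile acid intermediates (chr14:8225511-8259353), was unlisted in Tyr-L libraries 1 and 2 and at 0.0670 FPKM in library 3. Its Tyr-H levels were 0.521, 0.545 and 0.603 FPKM. Cox6a2, the heart and skeletal muscle form of a cytochrome c oxidase subunit (chr7:128205435-128206387), had 0.0683 FPKM in Tyr-L library 1 and was unlisted in the other two. Its Tyr-H levels were 0.961, 0.855 and 1.08 FPKM, from a short gene with at least 12.6 estimated fragments in each library. The coefficients of variation over the Tyr-H libraries were 7.60% for Acox2, 11.6% for Cox6a2, 19.4% for Akr1b7 and 15.6% for Stbd1. From 3 libraries, and with so few fragments in Cox6a2, they do not rank these genes by spread.

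The largest group was that of innate sensing and inflammation. The transcription factors of the NF-kappaB and IRF families switch on such genes when receptors sense microbial or self DNA, RNA or cytokines, and AIM2 and its PYHIN relatives include sensors of DNA in mouse cells. Icam1, Traf1 and Lcn2 are textbook targets of NF-kappaB.

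Irf5, an interferon regulatory factor that acts downstream of Toll-like receptors (chr6:29526625-29541871), had 0.0956, 0.0569 and 0.146 FPKM in Tyr-L and 1.65, 0.874 and 1.32 FPKM in Tyr-H libraries. The ratio of its means was 12.9. Its coefficient of variation over the Tyr-H libraries was 30.4%, against a median of 18% for the 38 genes. Irf5 shares 14.1% of its exonic bases with Tnpo3 on the opposite strand, which averaged 67.5 FPKM in Tyr-L cells against 51.4 in Tyr-H cells. Since strand use in counting is not given in the sources used here, reads of the pair cannot be told apart there, and Tnpo3 had the lower mean in Tyr-H and was not called. Gm43029, which shares its deposited locus with Irf5, fell from 0.713 to 0.102 FPKM (log2 fold change -2.01, limma adjusted p = 9.45e-05). Myd88, which with Irak1, Irak4 and Traf6 passes Toll-like receptor signals to IRF5, averaged 4.18 FPKM in Tyr-L and 6.29 in Tyr-H cells. Its log2 fold change of 0.58 (limma adjusted p = 0.00124) was under the fold change limit. Irak1, Irak4 and Traf6 had lower means in Tyr-H and an adjusted p over 0.05. Ticam1 (4.53 and 7.08 FPKM) and Slc15a4 (16.9 and 19.7 FPKM), also chosen as partners, rose with an adjusted p under 0.05 but under the fold change limit. Tlr7 and Tlr9 were unlisted.

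Lcn2, a secreted siderophore-binding lipocalin (chr2:32384633-32388252), was unlisted in all Tyr-L libraries. Tyr-H libraries 1, 2 and 3 held 0.708, 1.14 and 1.15 FPKM. Its Tyr-H mean was 9.60-fold the mean floor of the Tyr-L libraries, an approximate lower bound for the fold over Tyr-L. Icam1, the endothelial and leukocyte adhesion ligand of beta-2 integrins (chr9:21015985-21028817), was unlisted in Tyr-L library 1 and at 0.0325 and 0.0208 FPKM in libraries 2 and 3. Its Tyr-H levels were 0.449, 0.472 and 0.889 FPKM, the widest spread of the 38 genes, with a coefficient of variation of 41.0% set by library 3. Traf1, a signalling adaptor of TNF receptors (chr2:34941750-34961772), had 0.0202, 0.0732 and 0.0836 FPKM in Tyr-L and 0.405, 0.483 and 0.526 FPKM in Tyr-H libraries, a 7.99-fold ratio of means. Ctf1, the IL-6 family cytokine cardiotrophin (chr7:127712736-127718192), was listed in Tyr-L library 2 alone, at 0.0738 FPKM. Its Tyr-H levels were 0.857, 0.642 and 0.742 FPKM. Its receptor chains Lifr (1.35 and 1.11 FPKM, means of the Tyr-L and Tyr-H libraries) and Il6st (11.5 and 10.2 FPKM) were at similar means in both groups and were not called.

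Aim2, the cytosolic DNA sensor that starts an inflammasome (chr1:173350879-173466040), stood at 0.0998 and 0.0193 FPKM in Tyr-L libraries 1 and 2 and was unlisted in library 3. The Tyr-H libraries gave 0.775, 0.973 and 0.686 FPKM. The inflammasome adaptor Pycard and the protease Casp1 went the opposite way. Pycard fell from 3.84 to 1.28 FPKM (log2 fold change -1.47, limma adjusted p = 0.000863), and Casp1 from 1.94 to 0.322 FPKM (log2 fold change -2.29). Casp4, the protease of the noncanonical inflammasome, rose from 1.39 to 7.28 FPKM (log2 fold change 2.30). Il1b was unlisted in all libraries. Pycard, Casp1 and Casp4 are among 82 partner genes of 14 of the 38 genes, chosen when the 38 were known, of which 61 were tested, 2 called higher (3.28%) and 3 lower (4.92%), close to the shares of all tested genes.

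Aim2 lies in the PYHIN cluster of chromosome 1 with 2 others of the 38 genes, Ifi204 (chr1:173747293-173766943) and Ifi211 (chr1:173896345-173913046), at 281253 and 430305 bases from it. Ifi204 had 0.0560, 0.0857 and 0.0562 FPKM in Tyr-L and 0.433, 0.571 and 0.559 FPKM in Tyr-H libraries. Ifi211 lay between 0.0296 and 0.0873 FPKM in Tyr-L and between 0.399 and 0.585 FPKM in Tyr-H libraries. The ratios of means were 7.90 for Ifi204 and 7.76 for Ifi211. Not every gene of the cluster shared the pattern. Ifi213, between Aim2 and Ifi204, had 0.537, 0.611 and 0.433 FPKM in Tyr-L and 0.0174, 0.0559 and 0 FPKM in Tyr-H libraries, and was called lower (log2 fold change -2.35, SE 0.30, limma adjusted p = 0.000134). Ifi207, Ifi208 and Mndal averaged under 0.1 FPKM in both groups and were not tested. Ifi203, next to Ifi211, rose from 0.0835 to 0.273 FPKM (log2 fold change 1.06, adjusted p = 0.0263) and shares its deposited locus with Ifi211, so reads could be split between these related genes.

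**Figure D2:**
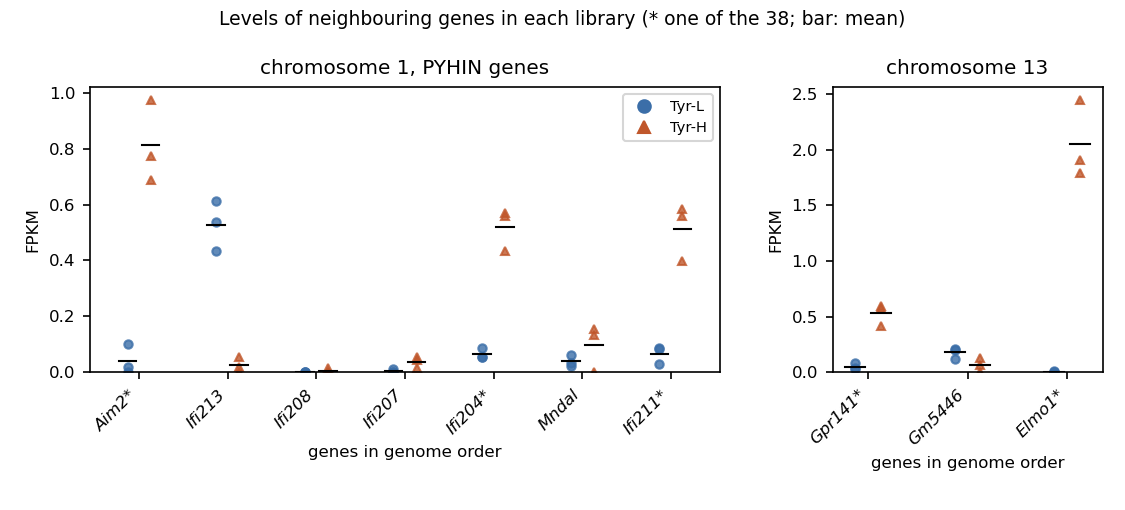
FPKM of each library for the listed genes between Aim2 and Ifi211 on chromosome 1 (left) and between Gpr141 and Elmo1 on chromosome 13 (right), in genome order, with circles for Tyr-L, triangles for Tyr-H and bars for means; asterisks mark genes of the 38. Aim2, Ifi204 and Ifi211 were higher in Tyr-H libraries while Ifi213 between them was near 0.5 FPKM in Tyr-L and near 0 in Tyr-H libraries.

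The groups of relatives of Ifi211 and Icam1 are known targets of interferon and of NF-kappaB. Their windows are shown because they alone, of the 30 genes with a window, hold the letters marked below. The windows of Aim2, Traf1 and Lcn2, of the same functional group, hold neither of these 2 motifs. Capitals mark GAAA and GAAA with 2 bases between, the letters of an interferon response element, in Ifi211 (chr1:173913047-173913296, minus strand) and GGAANTTCC, a form of the NF-kappaB motif, in Icam1 (chr9:21015690-21015939, plus strand).
Ifi211: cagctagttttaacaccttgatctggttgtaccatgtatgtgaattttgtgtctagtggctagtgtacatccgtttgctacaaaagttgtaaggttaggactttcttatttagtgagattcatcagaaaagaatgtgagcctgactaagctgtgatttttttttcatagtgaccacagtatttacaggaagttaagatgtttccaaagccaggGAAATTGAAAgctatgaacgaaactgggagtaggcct
Icam1: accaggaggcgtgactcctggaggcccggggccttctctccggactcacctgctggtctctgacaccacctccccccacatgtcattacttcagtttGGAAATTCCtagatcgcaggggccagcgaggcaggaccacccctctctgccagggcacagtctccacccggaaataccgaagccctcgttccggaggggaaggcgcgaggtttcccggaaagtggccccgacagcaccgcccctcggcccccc
The match begins 37 bases before the start in Ifi211 and 153 bases before it in Icam1. Motifs were searched on both strands in the 250 bases before each RefSeq start. The interferon response letters were in the window of 1 of the 30 genes (3.33%) and of 3.46% of all genes. GGAANTTCC, searched after the sequences were seen, was in 1 of 30 (3.33%) and 0.944% of all. Another NF-kappaB form, GGG and TTTCC with 2 bases between, was in 2 of 30 (6.67%), Prnd and Ptpn7, and in 1.65% of all, and the wider form with 5 bases between GGG and CC, which contains it, in 60.0% of the 30 and 48.7% of all. The AP-1 motif TGANTCA was in 6.67% of the 30 and 7.82% of all, TGACGTCA in 0 of 30 and 1.77% of all, CATGTG, the E-box of MITF, in 10.0% and 13.8%, and TATAAA in 10.0% and 14.3%. A match is a run of letters and not a site of binding, and no match says only that the letters are not in these windows.

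Cd74, the invariant chain that guides class II antigen molecules (chr18:60803848-60812652), had 0.0346, 0.0624 and 0.0355 FPKM in Tyr-L and 0.518, 0.776 and 0.641 FPKM in Tyr-H libraries. Every Tyr-L value of Cd74 lay under the floor. The class II chain genes H2-Aa and H2-Ab1 were unlisted, and Ciita, the activator of class II genes, averaged 0.003 and 0.007 FPKM. Ptpn7, a phosphatase of blood cells, had at most 0.129 FPKM in Tyr-L and 0.338 to 0.488 FPKM in Tyr-H libraries, a ratio of means of 5.00. Immune cell markers were looked at beside these genes. Of 23 such markers 8 were listed and 15 unlisted in all libraries, among them Ptprc, Adgre1, Csf1r, Itgam, Cd3e and Tyrobp. The summed level of the list was 4.19 to 5.01 FPKM in Tyr-L and 5.07 to 5.75 FPKM in Tyr-H libraries, mostly Cd68 (3.62 and 4.24 FPKM), and 0 of the 5 tested markers were called.

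**Figure D3:**
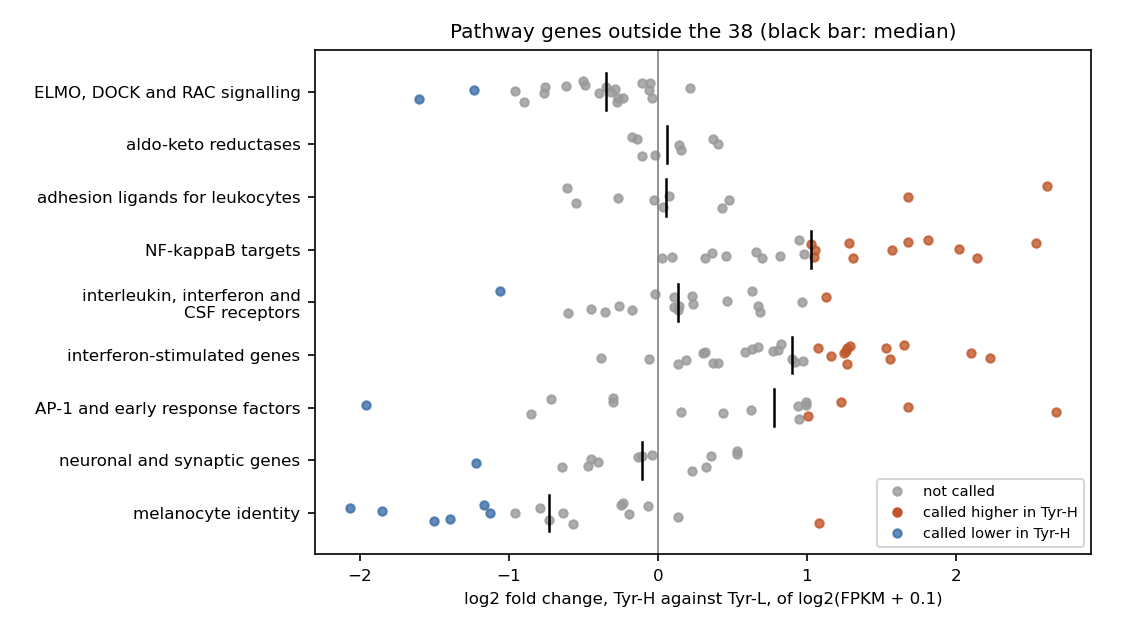
Log2 fold changes of log2(FPKM + 0.1), Tyr-H against Tyr-L, of the tested genes outside the 38 in 9 lists. Called genes are in colour and the list median is a black bar. The lists were chosen with earlier results of these data known. NF-kappaB targets and interferon-stimulated genes had 11 and 12 genes called higher and 0 called lower, and the melanocyte list 6 called lower.

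Genes of the NF-kappaB and interferon responses outside the 38 are set beside the 2.96% of all tested genes called higher. Like the other lists, these were chosen with earlier results of these data known, so the counts are a description and no independent test. Among NF-kappaB targets 11 of 21 tested genes were called higher and 0 lower, with a median log2 fold change of 1.03. They were Relb, Csf1, Tnfaip3, Nfkbia, Tnfaip2, Nfkbie, Tnf, Il6, Tnfrsf9, Lif and Bcl3, with 7 called at a pseudocount of 1. Relb, an NF-kappaB subunit, had 3.97, 4.46 and 4.14 FPKM in Tyr-L and 14.4, 14.6 and 16.1 FPKM in Tyr-H libraries (log2 fold change 1.82, SE 0.07, limma adjusted p = 2.43e-07). Among interferon-stimulated genes 12 of 29 were called higher and 0 lower, with a median of 0.90. These were Rsad2, Irf7, Oasl2, Usp18, Isg15, Isg20, Ddx58, Xaf1, Oasl1, Oas1a, Ifit3 and Gbp5, with 9 called at a pseudocount of 1. Gbp5 was also just outside the limits for the 38 genes. Of AP-1 and early response factors 4 of 16 were called higher (Atf3, Klf4, Maff and Junb) and 1 lower (Nr4a3), and the number called higher was 8 under median ratio scaling, 3 when libraries were rescaled to 1 total and 2 at a pseudocount of 1. Atf3, a stress-induced factor, rose from 5.71 to 36.6 FPKM (log2 fold change 2.67, adjusted p = 2.96e-07).

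For Icam1, 2 of 10 tested adhesion ligands outside the 38 were called higher and 0 lower, with 1 called higher at a pseudocount of 1. F11r, a junctional adhesion molecule, had 0.297, 0.126 and 0.0823 FPKM in Tyr-L and 1.24, 1.72 and 1.42 FPKM in Tyr-H libraries (log2 fold change 2.61, SE 0.30, limma adjusted p = 6.76e-05). Icam2 rose from 0.344 to 1.28 FPKM (log2 fold change 1.68, adjusted p = 0.000268). The median of the 10 genes was 0.05, turned to -0.04 when libraries were rescaled to 1 total and was 0.21 under median ratio scaling. Among 19 cytokine receptor genes Il12rb1 was called higher (0.131 and 0.403 FPKM) and Il20rb lower (1.05 and 0.422 FPKM), with 0 called in either direction at a pseudocount of 1 and 2 higher and 0 lower under median ratio scaling. Melanocyte identity genes had 1 called higher, Tyr, which was not called when libraries were rescaled to 1 total, and 6 lower of 17: Kit, Oca2, Trpm1, Rab27a, Mitf and Mc1r, with 4 called lower at a pseudocount of 1.

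Grik4, a kainate-type glutamate receptor subunit (chr9:42518135-42944493), had 0.0523, 0.0557 and 0.0408 FPKM in Tyr-L and 0.765, 0.756 and 0.841 FPKM in Tyr-H libraries. The ratio of its means was 15.9. Its 5.92% coefficient of variation was the lowest of the 38 genes over the Tyr-H libraries. Cacna1c, the pore of the L-type calcium channel of heart and neurons (chr6:118587240-119196418), had 0.121, 0.0564 and 0.0704 FPKM in Tyr-L and 0.691, 0.765 and 0.626 FPKM in Tyr-H libraries, an 8.40-fold ratio of means. The genes of its auxiliary subunits were not called higher. Cacnb4 fell from 0.756 to 0.0880 FPKM (log2 fold change -2.05, limma), and Cacna2d1 and Cacna2d3 were unlisted. Atp2a3, a calcium pump of the endoplasmic reticulum known from blood cells (chr11:72961169-72993044), was unlisted in Tyr-L library 1 and at 0.0396 and 0.01001 FPKM in libraries 2 and 3. The Tyr-H libraries gave 0.405, 0.466 and 0.504 FPKM. Slc12a8, a carrier of the cation-chloride family (chr16:33517328-33664135), had 0.0845, 0.140 and 0.0794 FPKM in Tyr-L and 0.494, 0.657 and 0.714 FPKM in Tyr-H libraries, with a ratio of means of 6.13. Atp1b1, a sodium pump beta subunit, reached at most 0.144 FPKM in Tyr-L and 0.315 to 0.428 FPKM in Tyr-H libraries (a ratio of means of 3.20), and shares 18.7% of its exonic bases with Nme7 on the opposite strand (18.9 and 15.9 FPKM). Of 13 tested neuronal and synaptic genes outside the 38, 0 were called higher and 1 lower, Nlgn1 (0.886 and 0.315 FPKM), with 0 called at a pseudocount of 1.

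The muscle genes described here are Ostn and Mef2b. Ostn, the secreted peptide osteocrin or musclin (chr16:27307489-27351212), was unlisted in all Tyr-L libraries. The Tyr-H libraries held 1.25, 1.05 and 1.11 FPKM, and their mean was 11.3-fold the mean floor of the Tyr-L libraries. Its receptor gene Npr3, for the natriuretic clearance receptor, averaged 0.583 and 0.355 FPKM and was not called. Mef2b, a MADS-box factor of muscle and germinal centre B cells (chr8:70139711-70167488), had 0.122, 0.111 and 0.125 FPKM in Tyr-L and 0.748, 0.666 and 0.807 FPKM in Tyr-H libraries, with a ratio of means of 6.19.

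Among the remaining coding genes, Prnd, which encodes the prion-like protein doppel (chr2:131950861-131956130), had 0.0476, 0.0871 and 0.0156 FPKM in Tyr-L and 0.439, 0.632 and 0.745 FPKM in Tyr-H libraries. Because 97.2% of its exonic bases are also in Prn, a readthrough gene model that joins Prnp to Prnd and was unlisted, its level is uncertain. Prnp itself averaged 14.4 and 15.8 FPKM. H1fx, a linker histone gene, Gprc5a, a retinoic acid-induced receptor, and Exoc3l2, an exocyst-related gene, lay between 0.350 and 0.573 FPKM in Tyr-H libraries and reached at most 0.145 FPKM in Tyr-L libraries. The ratios of means were 5.00 for H1fx and 4.78 for Exoc3l2.

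The noncoding genes included G730013B05Rik, a long intergenic RNA (chr16:50526245-50559459) that was unlisted in all Tyr-L libraries. It stood at 1.09, 1.59 and 1.30 FPKM in Tyr-H libraries, with a mean 25.5-fold the mean floor of the Tyr-L libraries. The other 5, A530040E14Rik, Gm13147, BC002163, 1810021B22Rik and E330017L17Rik, lay between 0.310 and 0.764 FPKM in Tyr-H libraries. BC002163, a processed pseudogene, had as few as 2.25 estimated fragments and was the only gene of the 38 under the floor in a Tyr-H library. E330017L17Rik was unlisted in Tyr-L libraries, and its Tyr-H mean was 2.59-fold the mean floor of the Tyr-L libraries. Gm13147 lies among related zinc-finger genes on chromosome 4 and shares its deposited locus with them, so its level is uncertain.

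Relatives of these genes were compared by level. Of 21 families named from the 38 genes, the listed gene had the highest Tyr-H level in 2, the PYHIN proteins and the calcium channel pores, and another gene was higher in 19. Elmo2 averaged 21.8 and 12.9 FPKM beside Elmo1, which made up 13.6% of the summed ELMO level in Tyr-H. The ubiquitous Cox6a1 averaged 251 and 327 FPKM beside Cox6a2, and Cttn, the cortactin gene, 88.0 and 64.3 FPKM beside Hcls1. Cacna1c made up 75% of the summed level of calcium channel pore genes in Tyr-H and 11.4% in Tyr-L, while Cacna1a fell from 0.625 to 0.209 FPKM (log2 fold change -1.26, limma adjusted p = 0.0041). Grik2 fell from 9.68 to 4.16 FPKM (log2 fold change -1.20), and stayed above Grik4 in both groups. Of 50 tested relatives outside the 38, 4 were called higher (8.0%) and 5 lower (10.0%), beside 2.96% and 5.78% of all tested genes.

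**Figure D4:**
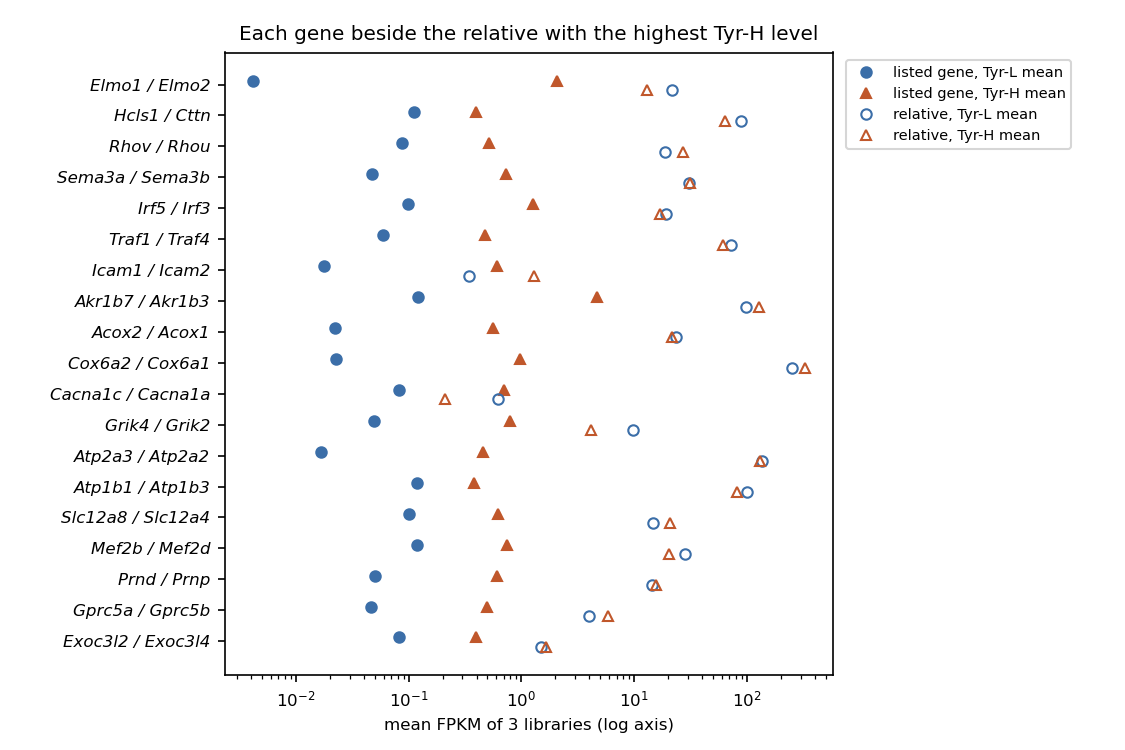
Mean FPKM of 19 of the 38 genes (filled symbols) and of the relative with the highest Tyr-H mean (open symbols), in Tyr-L (circles) and Tyr-H (triangles), on a log axis. The relative lay above the listed gene in both groups in each pair but that of Cacna1c with Cacna1a, whose order turned.

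The 38 genes lie on 14 chromosomes. Chromosome 1 holds 6 (15.8% against 6.73% of all listed genes), chromosomes 16 and 6 hold 5 each (13.2% against 2.82% and 5.90%). No gene of the 38 lies within 100 kb of another and 7 lie within 500 kb of another, in the PYHIN cluster, in the pair of Gpr141 and Elmo1 and in the pair of Ctf1 and Cox6a2 (487243 bases apart). Between Ctf1 and Cox6a2 the annotation holds 21 other listed genes, of which 16 were tested, 0 called higher and 3 lower, Hsd3b7, Pycard and 9430064I24Rik.

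In the surroundings of the 38 genes as a whole, 133 tested neighbours lie within 100 kb without overlap, and 4 were called higher (3.01%) and 8 lower (6.02%), close to the shares of all tested genes. Within 500 kb the counts were 22 higher (4.33%) and 25 lower (4.92%) of 508. Those called higher include Relb and Bcl3 near Exoc3l2, Cxcl10 and Cxcl11 near Stbd1, Chac1 near Rhov, Gdf15 near Mef2b and 4 zinc-finger genes near Gm13147. Near 3 of the same genes others were called lower, Dmpk by Exoc3l2 (log2 fold change -2.32), Knl1 by Rhov (-1.19) and Tmem59l by Mef2b (-1.41). The deposited tables give 1 locus to several genes in places. Of the 38 genes 14 share theirs with another listed gene (36.8% against 43.0% of all), among them H1fx with Rab7 (211 and 204 FPKM), Mef2b with Borcs8, Atp1b1 with Nme7 and Blzf1, and Cacna1c with Dcp1b. The neighbours named here had far higher levels. Of the 38 genes 16 share exonic bases with an annotated gene, over 50% of them in Prnd alone, and where strand is not known their levels are uncertain. Among the larger shares were H1fx (19.5%), A530040E14Rik (14.8%), Ostn (12.9%), Icam1 (11.7%) and Cox6a2 (10.3%). Of tested genes that overlap a gene of the 38, 0 of 6 were called.

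The Tyr-H libraries did not give equal levels. The coefficient of variation over them ran from 5.92% to 41.0%, and 3 genes were over 30%: Icam1, Gm13147 and Irf5. Tyr-H library 3 held the highest level for 20 of the 38 genes (52.6% against 32.8% of other tested genes) and library 1 the lowest for 21 (55.3% against 38.1%). The part of this library order in the levels of the 38 genes was not tested.

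Values near the limits show how narrow the choice was. Just inside the Tyr-L limit were Irf5, H1fx and Stbd1 with highest Tyr-L values of 0.146, 0.145 and 0.145 FPKM, and just outside it Gm5936, Apobr and Agpat9 with 0.153, 0.153 and 0.157 FPKM. Just inside the Tyr-H limit were E330017L17Rik, Atp1b1 and 1810021B22Rik with lowest Tyr-H values of 0.310, 0.315 and 0.322 FPKM. Itpr3, Gbp5 and Gimap6, with 0.292, 0.281 and 0.268 FPKM, fell just outside. These differences are smaller than the spread between libraries of a group.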

How the data were processed

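RNA of 3 Tyr-L and 3 Tyr-H libraries was sequenced on an Illumina instrument from both ends with reads of 150 bases. The authors deposited FPKM values, 1 table a library. The submitters' processing notes name Trimmomatic, HISAT2, HISAT and GRCm38.p6. The quantifier, annotation and strand setting are not given in the sources used here. A gene not listed in a library was taken as 0. Groups came from the labels. Coordinates and overlaps came from GENCODE M21 (GRCm38), in which 20709 genes were found.

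The 38 genes and all lists were chosen with earlier results of these data known. Families and partner genes were chosen once the 38 were known. Genes were tested on log2(FPKM + 0.1) with limma 3.58.1 in R 4.3.3, with a variance trend. Benjamini-Hochberg adjustment ran over the 14336 genes that averaged 0.1 FPKM or more. Calls needed an adjusted p of 0.05 or less and a change of at least 1 on the log2 scale. The 38 genes were in this fit and in the shares of all tested genes, and their own tests are not given. The procedure was tested on simulated data. A ratio of means was computed where the Tyr-L libraries held more than 3 estimated fragments in all. By a limit set after seeing the data, 9 of 28 ratios are not given, because every Tyr-L value lay under the floor or leaving out 1 library moved the ratio by over 1.5 times. A lower bound against the mean floor of 3 fragments per library was computed for 4 of the 5 genes unlisted in all Tyr-L libraries, and not for BC002163, which lay under the floor in a Tyr-H library. Depth was estimated from transcripts of at least 800 bases, and no count test was run.

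Values in every library are given for Elmo1, for the 25 genes with the highest value in their lowest Tyr-H library and for those in a fixed list; other genes of the 38 have ranges, and 1 is counted among the 38 but not reported here. Called list genes outside the 38 are named, some with means only. RefSeq windows were matched for 30 of the 38. Markers of fibroblasts, epithelium and endothelium summed to 2.30 to 2.55, 0.0597 to 0.269 and 8.42 to 9.77 FPKM in Tyr-L and to 2.06 to 2.39, 0.0741 to 0.0950 and 7.49 to 8.58 FPKM in Tyr-H libraries. Alternatives were other limits, pseudocounts, filters and scalings, a replicate block, and each library left out. Python 3.11.15 with pandas 2.3.3, numpy 2.4.6 and matplotlib 3.10.9 did the other steps.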

Additional observations from a re-analysis of the deposited data

How the results depend on the processing

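The number of genes chosen depends on the limits. With a Tyr-L limit of 0.1 FPKM it was 23, with a Tyr-H limit of 0.5 FPKM 17, and with a Tyr-H limit of 0.2 FPKM 61. Rescaling each library to a total of 1000000 FPKM gave 25 genes, of which 11 were among the 38, since the deposited FPKM sum to 446757 to 494468 a library and rescaling raises every value against fixed limits. Median ratio scaling gave 44, all 38 among them. Leaving out 1 library at a time gave 43 to 48 genes, all 38 among them, as a limit on fewer libraries must. The number of genes called over all tested genes was 1254 (33.9% higher). It was 388 (47.7% higher) at a pseudocount of 1, 640 with a mean of at least 1 FPKM required, and 1149 to 1279 with 1 library left out. Median ratio scaling moved the split to 544 higher and 580 lower (48.4% higher), and rescaling to 1 total gave 26.2% higher. Over all tested genes the median log2 fold change was -0.15, -0.01 after median ratio scaling and -0.25 after rescaling. Of list genes outside the 38, 42 were called, 26 at a pseudocount of 1 and 36 to 50 with 1 library left out, and 34 of the 42 stayed called without Tyr-H library 3. None of the 42 reversed under any alternative in which it was tested. Of 28 ratios of means, 7 moved by over 1.5 times with 1 library left out, an alternative chosen after seeing the data, and these are not given. With the replicate number as a block 1258 genes and 42 list genes were called. Same-numbered libraries of the 2 groups had correlations of 0.02, 0.01 and -0.08, and other pairs ran from -0.11 to 0.09. This gave no sign of pairing, but 3 libraries a group cannot show that no preparation was shared. Low FPKM and the absence of deposited counts limit what can be said of levels near 0.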
